A study of Mus musculus with 288 samples.

Results

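The genes described here are Atf4 and 9 genes that the amino acid response is known to involve, 10 of the 54232 genes in the deposited count table. They were chosen by name, with earlier results of these data known: Atf4 as the regulator, Asns, Psat1, Phgdh, Shmt2 and Mthfd2 as genes of amino acid synthesis and the folate cycle, and Chac1, Trib3, Ddit3 and Ddit4 as genes induced by stress. The cells are mouse embryonic stem cells of the line E14, strain 129/Ola, profiled by scNMT-seq, a method that reads transcripts and DNA methylation from each sorted cell, of which only the polyA RNA is used here. At D0 (0 h) the cells were held in 2i+LIF, a serum-free N2B27 medium with LIF and inhibitors of the MEK and GSK3 kinases, and at D1 (24 h) and D2 (48 h) they had been moved to DMEM with fetal bovine serum, LIF and non-essential amino acids. All cells were dissociated with accutase, sorted into 96-well plates and incubated with the M.CviPI methylase before lysis. As far as the labels show, each time point is 1 culture on 1 plate, so that the effects of time, culture and plate cannot be told apart. Cells of a plate are not replicates of a culture, and no test was possible. All values below are descriptions of these plates.

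When uncharged tRNA, misfolded protein in the endoplasmic reticulum or another stress activates an eIF2α kinase, general translation falls while the Atf4 mRNA is translated more, because upstream open reading frames in its leader hold translation back in unstressed cells. The mRNA level of Atf4 is therefore not a measure of ATF4 activity. ATF4 binds C/EBP-ATF response elements and switches on asparagine synthetase, serine synthesis, the mitochondrial folate enzymes, amino acid transporters and aminoacyl-tRNA synthetases, and under longer stress also CHAC1, TRIB3 and CHOP. In embryonic stem cells these enzymes also serve growth, since serine feeds the one-carbon units used for nucleotides and methylation.

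The response element was looked for in the promoters of all 10 genes, in a window of 250 bases before to 50 bases after the RefSeq start (build GRCm38.p6). The letters TGATGNAA, read on both strands, stand in that window of 3 of the 10 members and of 4.51% of the 27025 genes in the RefSeq table. The 3 sites are shown because they mark the members whose promoter holds the element, with 11 bases to either side and the element in capitals.

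Asns, chr6:7693214-7693243, minus strand: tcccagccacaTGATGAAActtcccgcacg

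Chac1, chr2:119351038-119351067, minus strand: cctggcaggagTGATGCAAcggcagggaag

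Trib3, chr2:152344028-152344057, plus strand: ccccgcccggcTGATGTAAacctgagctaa

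In Asns the element ends 16 bases before the RefSeq start, inside the span of the gene in GENCODE M21, in Chac1 it ends 186 bases before it on the strand opposite to the gene, and in Trib3 it begins 14 bases after the start, also on the opposite strand. The form TTGCATCA is the Chac1 site itself read on the other strand, and 1.03% of all genes hold it. The cAMP response element TGACGTCA was found in none of the members and in 2.03% of genes, and the endoplasmic reticulum stress element (CCAAT and CCACG set 9 bases apart) in none of the members and in 0.137%. These are matches of letters in 1 window, not evidence of binding, and no match says nothing about sites elsewhere.

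Of 96 wells per label, 90 passed the filter in D0, 50 in D1 and 93 in D2 (over 200000 reads, over 2000 genes and a share of mitochondrially encoded reads under 0.15). No 2 of the wells held identical counts. The plates differed in depth and content, with a median of 1610760 reads on genes in D0, 7956160 in D1 and 2162090 in D2. At 200000 reads per cell D0 and D1 cells had a median of 7823.5 and 8058 detected genes, and D2 cells of 3952. Markers of pluripotency were read in every label, with all 10 of 10 present and a median summed level of 6770 CPM (reads of a gene per 1000000 reads on genes in the cell) in D0, 6165 in D1 and 9429 in D2, whereas the lists for primitive endoderm, mesoderm, feeder fibroblasts and 2-cell-like cells each had a median summed level of 0, and the neural and trophoblast lists one of at most 28.03 CPM. The single pluripotency markers did not all hold their level, with 1 at least 2-fold higher and 6 lower in D1 than in D0 (median log2 ratio -1.69), and 2 higher and 4 lower in D2 than in D0 (-0.74). The D1 plate stood apart: Hprt, a purine salvage enzyme, had a read in 9 of 90 D0 cells, 48 of 50 D1 cells and 7 of 93 D2 cells. The derivative E14TG2a of E14 is known to lack a functional Hprt gene, and the labels give all 3 plates as E14. Whether the D1 cells are of the same origin as the others was not tested and cannot be told apart from time and plate, and every comparison with D1 below carries this difference. Leaving out the cells that went against their label in Hprt left 81, 48 and 86 cells.

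Atf4, the regulator, was read in nearly every cell of D0 and D1 and in 83 of 93 D2 cells. It lies at chr15:80255184-80257541 (GRCm38, as are all positions, from GENCODE M21). Its level ran from 0 over a median of 180 to 564 CPM in D0, from 0 over 188 to 1245 in D1 and from 0 over 324 to 1245 in D2. The means were 204 ± 128 (SD, n = 90 cells), 255 ± 229 (n = 50) and 395 ± 328 (n = 93). The 3 labels overlapped up to the highest D0 cell, above which lay cells of D1 and D2 alone, and the D2 cells were spread more widely than the D0 cells, both upwards and down to 0. In log2 units the ratio of means was 0.32 for D1 over D0, 0.95 for D2 over D0 and 0.63 for D2 over D1. The middle value is close to a doubling in the mean, but the difference of mean log2(CPM + 1) between D2 and D0 was 0.0056, and that between D2 and D1 turned to -0.19, where 10 of the 93 D2 cells had no Atf4 read against 1 of the 90 D0 cells.

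**Figure D1:**
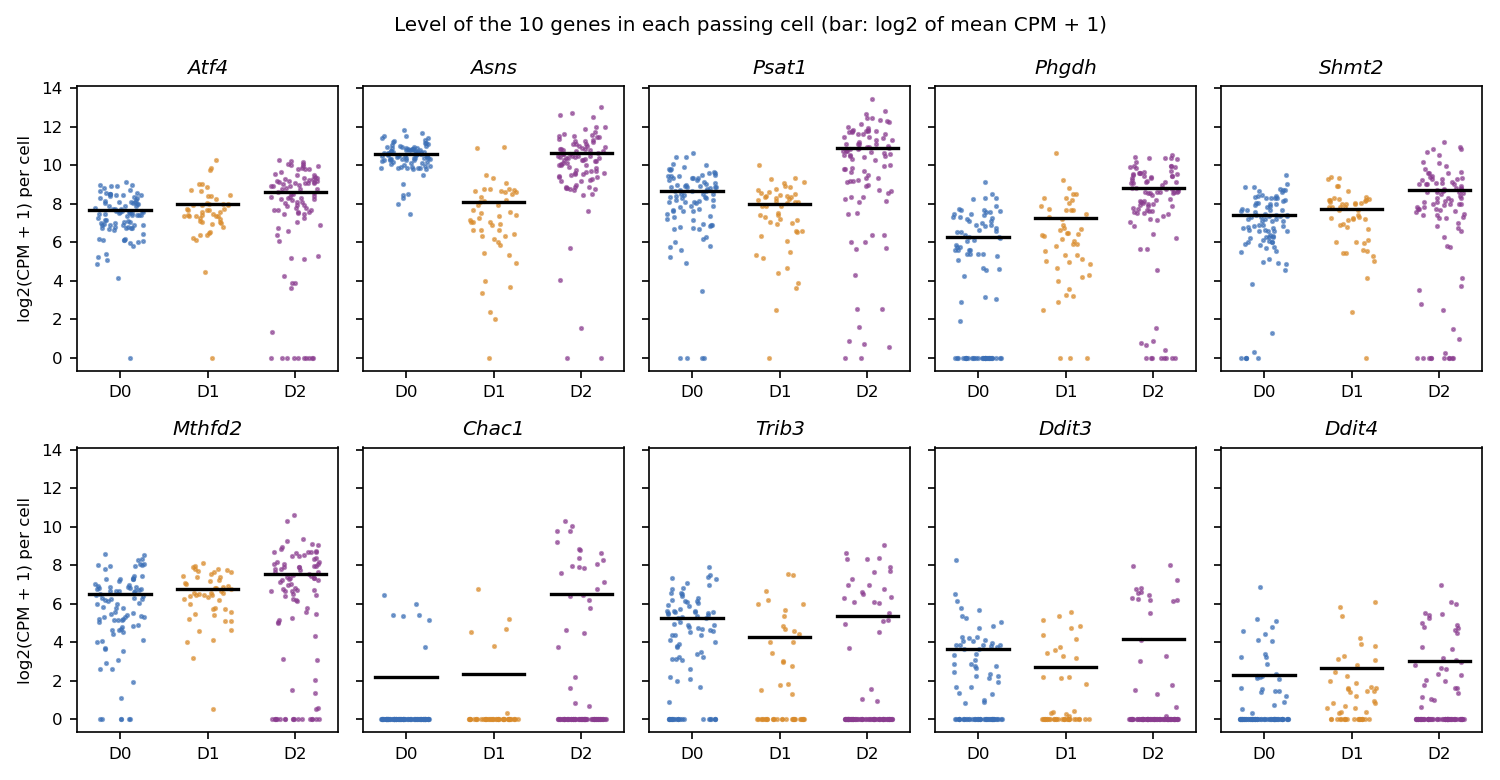
Level of each of the 10 genes in every passing cell, as log2(CPM + 1), for D0 (90 cells), D1 (50 cells) and D2 (93 cells). Points are cells, and black bars mark the mean CPM drawn on the same scale. Asns is lowest in D1, Psat1 and Phgdh have their highest means in D2, and Chac1 is at 0 in most cells of every label.

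The synthesis genes did not share a single pattern over the labels. Asns was low on the D1 plate, at a mean 5.53-fold below D0, and was near its D0 level in D2. Psat1 and Phgdh, by contrast, had their highest level in D2, 4.62-fold and 5.88-fold above D0. Shmt2 and Mthfd2 were 2.45-fold and 2.09-fold above D0 in D2.

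Asns (chr6:7675169-7693254) encodes the synthetase that makes asparagine from aspartate and glutamine. Its level ran from 174 over a median of 1467 to 3645 CPM in D0, from 0 over 158 to 1965 in D1 and from 0 over 1293 to 8360 in D2. In the order D0, D1 and D2 the means were 1531 ± 640, 277 ± 386 and 1615 ± 1443. Most D1 cells lay below most D0 cells, although the ranges overlapped, and D2 cells spread over both. The log2 ratio was -2.47 for D1 over D0 and stayed between -3.39 and -1.76 in every alternative, including both sides of the plate and the cells without those that went against their label in Hprt. For D2 over D0 it was 0.08, and -0.51 on mean log2(CPM + 1), so that no direction is given there, and for D2 over D1 it was 2.54.

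Psat1 (chr19:15904678-15947337), the aminotransferase of the serine pathway, had a lowest, median and highest level of 0, 335 and 1564 CPM in D0, 0, 236 and 1030 in D1, and 0, 1494 and 11111 in D2. The means were 405 ± 329, 255 ± 205 and 1874 ± 1923 CPM. The median D2 cell lay near the highest D0 cell, and the D2 cells alone reached values above 2000. Its log2 ratio was -0.67 in D1 over D0, 2.21 in D2 over D0 and 2.88 in D2 over D1, and D2 over D0 stayed between 1.54 and 2.75 in the alternatives.

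Phgdh (chr3:98313170-98339990) makes the first committed step of serine synthesis from a glycolytic intermediate. Its level had a lowest, median and highest value of 0, 41.4 and 562 CPM in D0, 0, 80.1 and 1617 in D1, and 0, 374 and 1475 in D2, with means of 75.7 ± 101, 153 ± 249 and 445 ± 379. The log2 ratio was 1.01 in D1 over D0, 2.56 in D2 over D0 and 1.54 in D2 over D1. The D1 value lay at the limit of 2-fold. It dropped below it when any of 48 of the 140 cells was left out, and was 0.70 without the highest D1 cell, in row B and column 7, whereas D2 over D0 stayed between 2.41 and 3.45 in the alternatives. Phgdh has many near-identical copies in the genome, and reads can be split between them. The copy with the most reads over the 3 plates was Gm7901, at 98.7% identity, with 1.70% of the Phgdh reads in D0, 1.40% in D1 and 1.80% in D2. Gm44983, at 93.2% identity, had 4.58%, 1.21% and 0.43%.

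Shmt2 (chr10:127517123-127522444) and Mthfd2 (chr6:83305691-83325908) are the mitochondrial enzymes that take the carbon unit from serine into folate. For Shmt2 the lowest, median and highest level was 0, 137 and 720 CPM in D0, 0, 201 and 679 in D1, and 0, 282 and 2332 in D2, and the means were 170 ± 140, 213 ± 163 and 418 ± 467. For Mthfd2 it was 0, 63.8 and 384 CPM in D0, 0.47, 93.4 and 282 in D1, and 0, 124 and 1582 in D2, with means of 90.2 ± 89.5, 109 ± 72.2 and 189 ± 246. Both genes were within the spread of D0 in most D2 cells, with a few cells far above. The log2 ratios of Shmt2 were 0.32, 1.30 and 0.97 for D1 over D0, D2 over D0 and D2 over D1, and those of Mthfd2 were 0.28, 1.07 and 0.79. With mean log2(CPM + 1) the D2 over D0 values dropped to 0.51 for Shmt2 and 0.08 for Mthfd2, and the D2 over D1 values turned to -0.02 and -0.72. Without the highest Mthfd2 cell of D2, in row C and column 4, the Mthfd2 ratio was 0.95. Shmt2 in D2 over D1 was 1.04 without the highest D1 cell, in row F and column 8.

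The stress genes had lower means than the other members on each plate, and Chac1 was carried by few cells. Chac1 (chr2:119351229-119354381), a γ-glutamylcyclotransferase that breaks down glutathione, had a median of 0 CPM in each label and a highest level of 85.8 CPM in D0, 107 in D1 and 1240 in D2. The means were 3.54 ± 13.6, 4.06 ± 16.4 and 89.99 ± 231, so that the SD was over 2.5 times the mean on every plate. In D2 the 10 highest of 93 cells held 78.6% of the summed CPM. D2 over D0 was a log2 ratio of 4.67, and D2 over D1 was 4.47. Leaving out the highest D2 cell, in row E and column 4, gave 4.45 and 4.25, and on mean log2(CPM + 1) the values were 1.61 and 1.52. D1 over D0 was 0.20, with -0.85 without the highest D1 cell, in row D and column 5, and 1.96 with summed reads and TMM factors, so no direction is given.

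Trib3 (chr2:152337422-152344032) encodes a pseudokinase that binds ATF4 and AKT. It had a median of 22.8 CPM in D0 and of 0 in D1 and D2, with highest values of 238, 187 and 521 CPM. The means were 38.04 ± 47.8, 18.5 ± 40.7 and 40.6 ± 95.9 CPM, so D0 and D2 had like means from different distributions, many cells with a little in D0 and few cells with much in D2. Its log2 ratio was -1.04 in D1 over D0, 0.10 in D2 over D0 and 1.14 in D2 over D1. The first was -0.026 with reads summed over the cells, and turned to 0.18 with summed reads and TMM factors and to 0.077 with summed reads and size factors. On mean log2(CPM + 1) the D2 over D0 value was -1.91, and the last turned to -0.09. Without the highest D0 cell (row A, column 5) D1 over D0 was -0.95, and without the highest D2 cell (row B, column 1) D2 over D1 was 0.94.

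Ddit3 (chr10:127290774-127296288) encodes CHOP, a transcription factor of prolonged stress, and Ddit4 (chr10:59949669-59951834) encodes REDD1, an inhibitor of mTORC1. Ddit3 had means of 11.6 ± 34.9, 5.60 ± 11.3 and 17.2 ± 46.96 CPM, a median of 0.84 in D0 and of 0 in the others, and highest values of 304, 47.1 and 261. Its log2 ratio was -1.05 in D1 over D0, which was -0.57 without the highest D0 cell (row B, column 9), and 0.57 in D2 over D0, which was 1.06 without that cell. The D2 over D0 ratio was 2.15 in plate columns 1 to 6 and -2.04 in columns 7 to 12, so no direction can be given. For D2 over D1 it was 1.62, with 2.38 and -0.48 on the same sides of the plates and -0.064 on mean log2(CPM + 1). Ddit3 shares 68 exon bases with Mars on the opposite strand, Mars had 228982 reads in the passing cells against 11035 for Ddit3, and whether counting used strand is not given in the sources used here. Ddit4 had means of 3.98 ± 13.99, 5.47 ± 13.4 and 7.20 ± 18.5 CPM and highest values of 117, 66.9 and 127, with medians of 0, 0.72 and 0. Its log2 ratios of 0.46, 0.85 and 0.40 rest on few cells. The highest 9 of 90 D0, 5 of 50 D1 and 10 of 93 D2 cells held 83.8%, 71.7% and 76.1% of its summed CPM. Without the highest D0 cell, again in row B and column 9, the first 2 ratios were 1.02 and 1.41. The first was -0.22 with summed reads and the last -0.15 on mean log2(CPM + 1).

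The members were set against the genes that met a limit on detection. At a fold of at least 2, 1 of the 10 members (Phgdh) was higher in D1 than in D0, beside 25.2% of the 17115 genes that were read in 10% or more of the cells on one or the other plate. In the same comparison 3 members (Asns, Trib3 and Ddit3) were lower, beside 27.7% of genes. These counts are near the background, and only Asns was more than 3-fold away. In D2 over D0, 5 of 10 members were higher (Psat1, Phgdh, Shmt2, Mthfd2 and Chac1) and none was lower, beside 14.8% and 33.7% of 13964 genes. Chac1, with a read in 7.78% of D0 cells and 30.1% of D2 cells, met the limit through D2 alone, where it was high, so it had to differ, and without it the count was 4 of 9. In D2 over D1, 6 were higher (Asns, Psat1, Phgdh, Chac1, Trib3 and Ddit3) and none was lower, beside 18.4% and 33.9% of 16465 genes. Of these 6, Trib3 and Ddit3 turned to -0.092 and -0.064 on mean log2(CPM + 1), and Ddit3 to -0.48 in plate columns 7 to 12. The median log2 ratio of the members, Chac1 included, was 0.24, 1.01 and 1.34 in the 3 comparisons. That of all these genes was -0.12, -0.32 and -0.27. Among the 13964 genes the D2 over D0 ratio of Phgdh lay at the 97.4th percentile and that of Psat1 at the 96.4th. That of Chac1 lay at the 99.4th, a place in part fixed by the limit that it met through D2 alone. With every gene that had at least 1 read as background, 33.5% were higher and 34.2% lower for D1 over D0, 21% and 46.2% for D2 over D0, and 21.1% and 46.8% for D2 over D1, with medians of -0.085, -0.73 and -0.75. D2 over D0 and D2 over D1 share the D2 cells, and both comparisons with D0 share the D0 cells. The count of 5 for D2 over D0 was 3 on mean log2(CPM + 1), where 1 member, Trib3, was lower. The share of all genes on that measure was not computed, so these counts have no background.

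**Figure D2:**
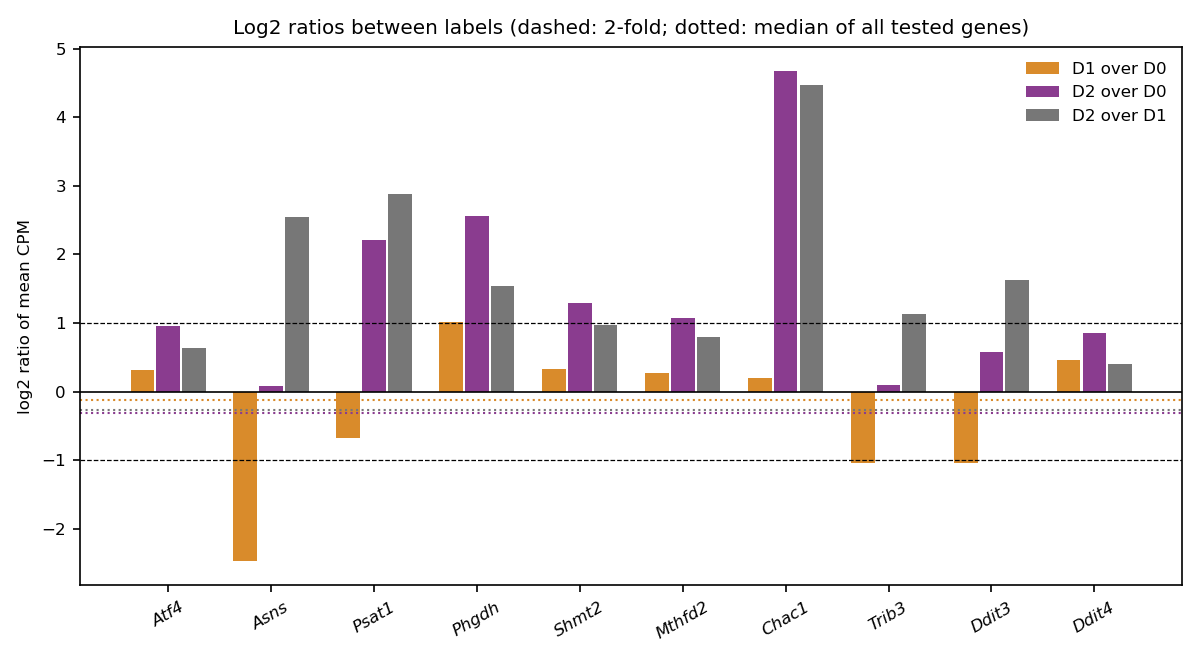
Log2 ratio of mean CPM for each gene in D1 over D0, D2 over D0 and D2 over D1. Dashed lines mark a 2-fold difference and dotted lines the median of the genes read in 10% or more of the cells on one or the other plate, -0.12, -0.32 and -0.27. All 10 bars of D2 over D0 lie above 0, although Asns, Trib3 and Ddit3 are below it on mean log2(CPM + 1), and Asns in D1 over D0 is the lowest bar at -2.47.

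The share of cells with a read was compared at equal depth, with each cell thinned to 200000 reads, where 1 read stands for 5 CPM. Phgdh was read in 60% of D0 cells (95% exact interval 49.1 to 70.2), in 90% of D1 cells (78.2 to 96.7) and in 86.02% of D2 cells (77.3 to 92.3). Here the share and the level had the same order between D0 and the later plates. Chac1 was read in 7.78% of D0 cells (3.18 to 15.4), 10% of D1 cells (3.33 to 21.8) and 25.8% of D2 cells (17.3 to 35.9), so the higher mean in D2 came with more cells as well as with higher cells. Trib3 ran the other way, with 71.1% of D0 cells (60.6 to 80.2), 38% of D1 cells (24.7 to 52.8) and 25.8% of D2 cells (17.3 to 35.9). These intervals are Clopper-Pearson intervals that cover counting error only. Without thinning the shares of Phgdh were 63.3%, 94% and 91.4%, those of Chac1 7.78%, 12% and 30.1%, and those of Trib3 74.4%, 44% and 30.1%.

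For 7 of the members (Atf4, Asns, Psat1, Shmt2, Mthfd2, Trib3 and Ddit3) the share of D2 cells lay below that of D0 cells and the mean CPM above it, so the shares give no order. Atf4 was read in 98.9%, 98% and 88.2% of cells, Shmt2 in 93.3%, 96% and 86.02%, and Mthfd2 in 87.8%, 98% and 75.3% of D0, D1 and D2 cells. The lower shares in D2 moved with the fewer genes detected on that plate, and the part of this in the shares was not tested. Asns was read in 100%, 98% and 95.7% of cells and Psat1 in 95.6%, 96% and 92.5%. Ddit3 had shares of 36.7%, 28% and 18.3%, and Ddit4 of 15.6%, 30% and 25.8%.

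**Figure D3:**
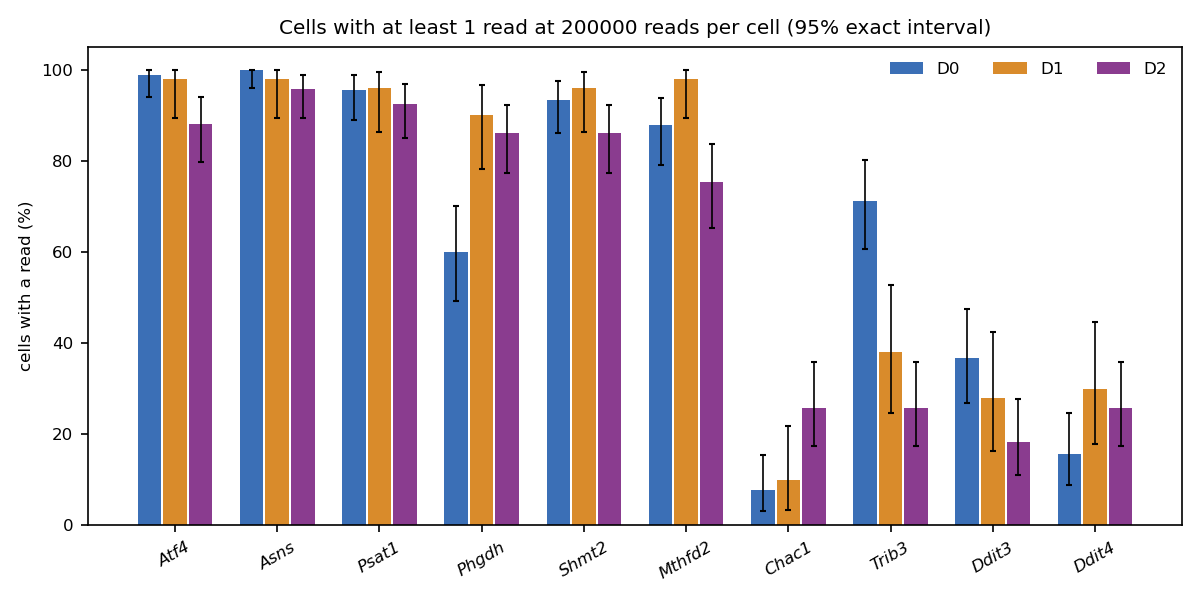
Share of cells with at least 1 read at 200000 reads per cell for each gene in D0, D1 and D2, with 95% Clopper-Pearson intervals. The regulator and the synthesis genes are read in most cells, Phgdh is lowest in D0 at 60%, and Chac1 is read in 25.8% of D2 cells.

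Per length of the longest coding transcript, Asns had the highest mean level of the 10 genes in D0, 759 CPM per kilobase, and in D2, 801. In D0 it was followed by Psat1 (155), Atf4 (118), Shmt2 (74.5), Mthfd2 (43.3) and Phgdh (40.01), and in D2 by Psat1 (716), Phgdh (235), Atf4 (229), Shmt2 (183) and Mthfd2 (90.6). Phgdh thus moved from the sixth place to the third, although it lay next to Atf4 and the spread between cells was wider than that gap. In D1 Atf4 (148), Asns (137), Psat1 (97.3), Shmt2 (93.2) and Phgdh (80.6) lay close together, and with the median in place of the longest transcript Asns came first. The stress genes were lowest in each label, with Trib3 at 18.8, 9.12 and 20.1 CPM per kilobase in D0, D1 and D2, and with Chac1 at 2.16, 2.48 and 54.975.

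The cells with stress genes in D2 overlapped in part. At equal depth, 12 of the 93 D2 cells had reads of 3 of the 4 stress genes, 10 had 2, 33 had 1, 38 had none, and no cell had all 4. In D0, 11 of 90 cells had 3, 1 had all 4, and 18 had none. Of the 24 D2 cells with Chac1, 12 also had Trib3, which was read in 25.8% of all D2 cells, and all 24 had Atf4, which was read in 88.2%. In D0, all 7 cells with Chac1 had Trib3, which was read in 71.1% of all D0 cells. A few cells thus carried several of these genes at once, but most D2 cells with a stress gene had just 1.

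Co-variation between cells was high among the synthesis genes in D0 and D1. Over the cells of 1 label at equal depth, the median Spearman rho of the 10 pairs of synthesis genes came to 0.50 in D0, 0.60 in D1 and only 0.11 in D2. A rho of at least 0.3 was reached by 9 of 10 pairs in D0, beside 1.23% of all pairs among genes read in 50% or more of the cells. It was reached by 10 of 10 pairs in D1, beside 8.79%, and by 0 of 10 in D2, beside 0.717%. The median rho over all such pairs was 0.032, 0.056 and 0.015. The cells of a label share 1 plate, and their depth and composition, so these values carry no test.

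The highest pairs in D0 were Psat1 with Shmt2 (0.64) and Psat1 with Mthfd2 (0.64), and the lowest was Asns with Phgdh (0.23). In D1 the highest was Psat1 with Mthfd2 (0.65) and the lowest Asns with Phgdh (0.38), and no pair on either plate was below 0. Against the mean rank of the other synthesis genes, Psat1 had the highest rho on both plates (0.75 and 0.69), followed by Mthfd2 (0.72 and 0.66), with Phgdh lowest in D0 (0.50) and Asns lowest in D1 (0.55). In D2 the pairs ran from -0.17 for Phgdh with Mthfd2 to 0.29 for Psat1 with Phgdh. The D0 and D1 medians held on each side of the plate, with 0.57 and 0.42 in D0 and 0.64 and 0.51 in D1 for columns 1 to 6 and 7 to 12, and the D2 median was 0.12 on both sides. In D0 the mean rank of the 5 synthesis genes had a rho of 0.35 with detected genes and -0.45 with the mitochondrial share, and given reads, detected genes and mitochondrial share the median rho was 0.39, with 8 of 10 pairs past 0.3. In D1 the same partial value was 0.59 and in D2 0.08.

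**Figure D4:**
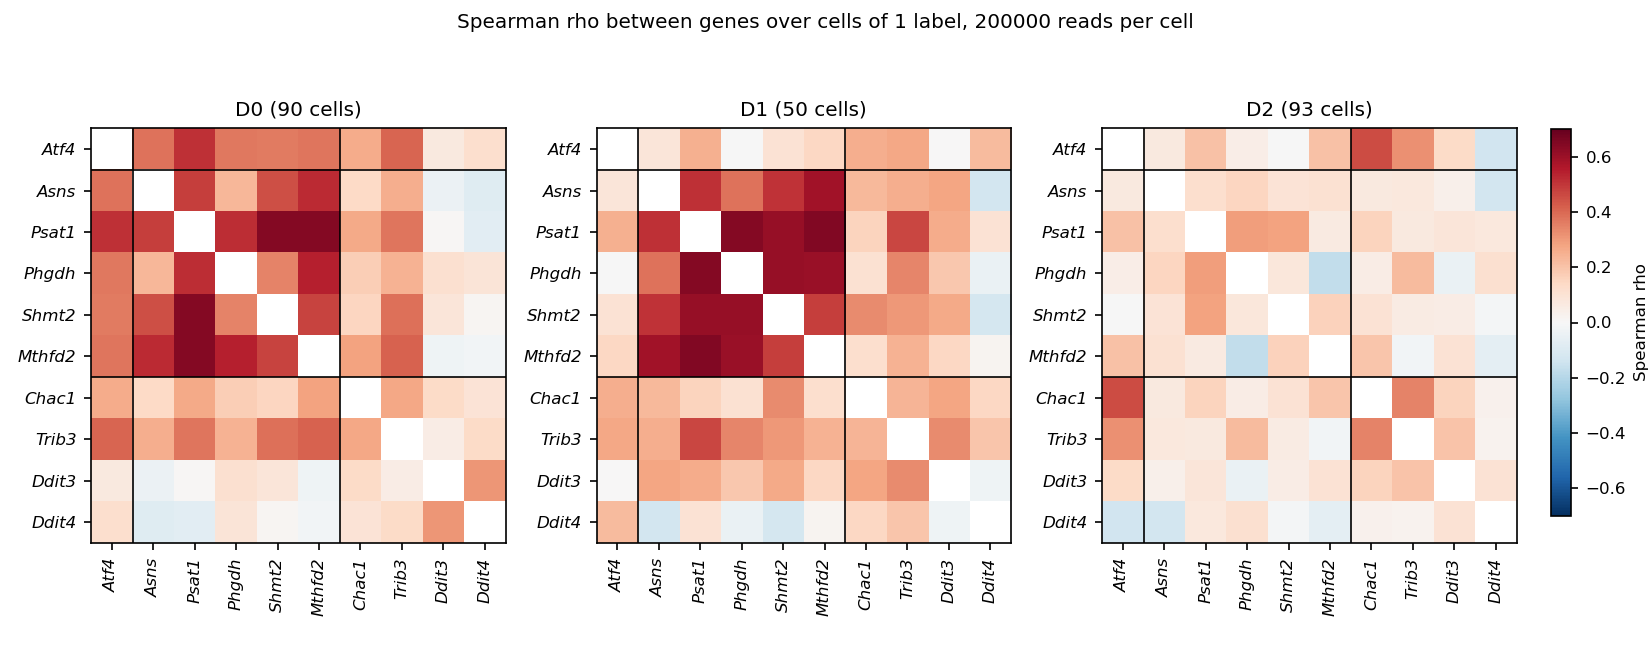
Spearman rho of each pair of the 10 genes over the cells of D0, D1 and D2, at 200000 reads per cell. Black lines separate Atf4, the synthesis genes and the stress genes. The block of the 5 synthesis genes is dark in D0 and D1, with medians of 0.50 and 0.60, and pale in D2, with a median of 0.11.

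Fewer genes were detected per cell on the D2 plate. The co-variation in D0 and D1 was therefore also computed at a number of detected genes near that of D2. When D0 cells were thinned to 10000 reads, where they had a median of 3626 detected genes against 3952 in D2, their median rho was 0.26, with 4 of 10 pairs at 0.3 or above, beside 0.617% of all pairs. D1 cells at 15000 reads, with a median of 4033.5 detected genes, had a median rho of 0.40 and 9 of 10 pairs, beside 5.82%. Both were above the 0.11 of D2, but the gap between D0 and D2 was much narrower than at equal reads. With Pearson's r of log2(CPM + 1) the D2 median was 0.24 and 3 of 10 pairs reached 0.3, against 0.49 in D0.

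**Figure D5:**
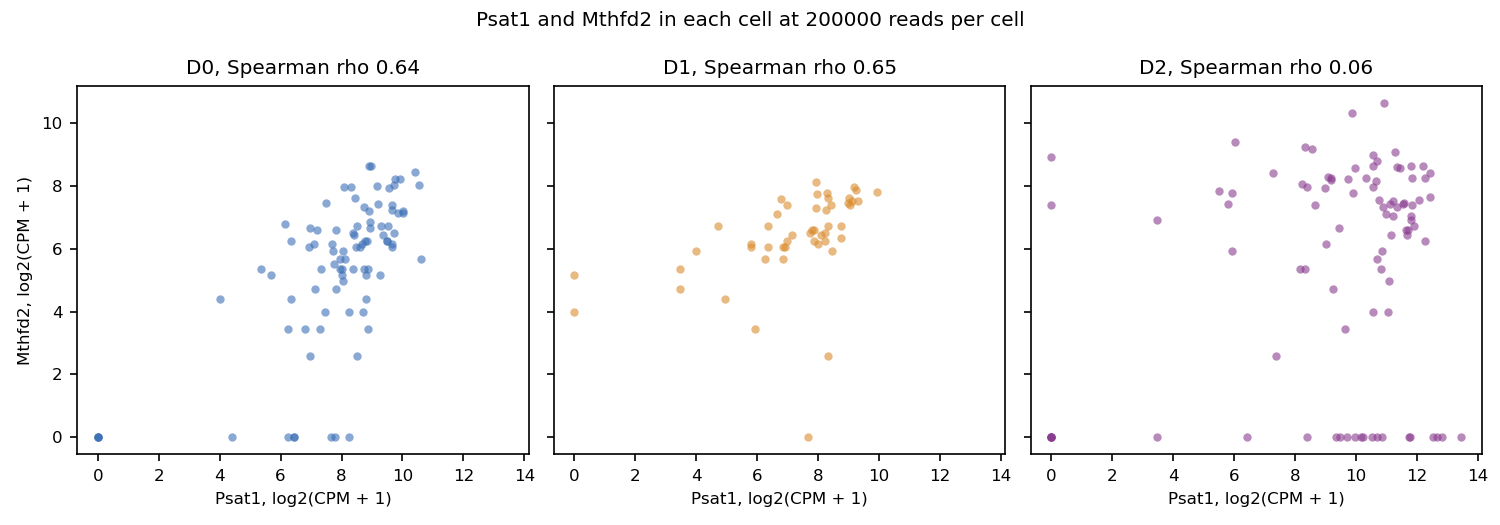
Psat1 against Mthfd2 in each cell at 200000 reads per cell, both as log2(CPM + 1), with 1 point per cell of D0, D1 and D2. Spearman rho was 0.64, 0.65 and 0.063, and in D2 many cells with high Psat1 have no Mthfd2 read.

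Atf4 had a higher rho with the synthesis genes in D0 than on the other plates. All 5 of its pairs with them reached 0.3 in D0, with a median rho of 0.37 and the highest value for Psat1 at 0.51. The median was 0.10 in D1 and 0.066 in D2, with none at 0.3, and with Pearson's r it was -0.044 and 0.20. Pearson's r gave a D0 median of 0.37. Given reads, detected genes and mitochondrial share, the D0 median of rho fell to 0.22, with 1 pair past 0.3. The D1 and D2 medians on that partial measure were lower still, at 0.090 and 0.047. Among the stress genes the rho of Atf4 with Trib3 came to 0.41 in D0, 0.27 in D1 and 0.32 in D2. For Chac1 it was 0.26 in D0 and in D1 and 0.45 in D2, where Chac1 with Trib3 had 0.35. At equal depth Chac1 was read in only 7.78% of D0 and 10% of D1 cells. Its values there rest on few cells and are not set against D2. The same limit, a read in under 20% of cells, holds below for Ddit4 in D0 and Ddit3 in D2. For Ddit3 it was 0.071, 0.0054 and 0.13, and for Ddit4 0.12, 0.22 and -0.13, so the 4 stress genes did not go together. The D2 value of Atf4 and Chac1 was 0.50 in plate columns 1 to 6 and 0.40 in columns 7 to 12, and 0.42 given reads, detected genes and mitochondrial share. In D2 Atf4 with Trib3 had 0.24 in columns 7 to 12 and Chac1 with Trib3 also had 0.24 there.

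Synthesis and stress genes co-varied less than synthesis genes did among themselves in D0 and D1. In D2 the medians, 0.068 between the groups and 0.11 within synthesis, lay close together. The median rho between the groups came to 0.18 in D0, 0.25 in D1 and 0.068 in D2, over the pairs in which both genes were read in at least 20% of cells. The D0 value was 0.068 given reads, detected genes and mitochondrial share, and the D1 value was 0.13 with Pearson's r. In D0 and D1 Trib3 was the stress gene nearest to the synthesis genes, with 0.41 for Mthfd2 and 0.38 for Shmt2 in D0 and 0.47 for Psat1 in D1. In D2 its rho with their mean rank was 0.11, and that of Chac1 was 0.20. Ddit3 and Ddit4 had a rho with the mean rank of the synthesis genes of 0.034 and -0.033 in D0. Within the stress genes only 1 to 3 pairs per label met the limit on detection, so their median is not read.

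In D0 the genes nearest to the mean rank of the 5 synthesis genes included 3 aminoacyl-tRNA synthetases. The 5 highest among genes read in 50% or more of cells were Aars (rho 0.66), Gars (0.62) and Mars (0.61), which charge tRNA with alanine, glycine and methionine, Nupr1 (0.60), a small stress-induced chromatin protein, and Aldh18a1 (0.57), an enzyme of proline synthesis. A rho of at least 0.3 was reached by 6.15% of 7509 genes in D0, 19.8% of 7420 in D1 and 0.799% of 2878 in D2. In D1 the 5 highest were Heatr3 (0.75), Pmpcb (0.71), Clic4 (0.68), Txn2 (0.66) and Mcm7 (0.66), none of them in the lists used here. In D2 they were Eif2s3x (0.42), Maea (0.42), Anapc5 (0.39), Apex1 (0.37) and Ythdf2 (0.36).

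Counted over lists of the pathway, the aminoacyl-tRNA synthetases reached a rho of 0.3 with the synthesis genes in 13 of 20 genes in D0, 18 of 20 in D1 and 1 of 19 in D2. Amino acid transporters did so in 5 of 8, 8 of 10 and 1 of 4, and other amino acid enzymes in 5 of 14, 10 of 12 and 0 of 8. In D0 Slc7a1, a carrier of cationic amino acids, had 0.46, and Slc7a5, a carrier of large neutral amino acids, 0.45. The genes of the unfolded protein response did so in 0 of 13, 5 of 13 and 0 of 10, and the eIF2 kinases, eIF2 subunits and their phosphatases in 0 of 15, 4 of 14 and 1 of 8. The further genes of serine and folate metabolism did so in 2 of 12, 4 of 10 and 0 of 7, and the other partners and targets of ATF4 in 3 of 7, 1 of 6 and 0 of 3. The D1 counts stand beside a background of 19.8%. Dars, the aspartyl-tRNA synthetase, went the other way in D0 with -0.35.

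The levels of the other pathway genes did not all follow the members. The counts of genes at least 2-fold higher or lower in each list below stand beside 25.2% and 27.7% of the genes that met the limit on detection for D1 over D0, and 14.8% and 33.7% for D2 over D0, and several, such as 3 of 14 lower, are near these shares. Among 14 further genes of serine and folate metabolism, none was higher and 3 were lower by at least 2-fold in D1 over D0 (median log2 ratio -0.62), and 2 of 13 were higher and 3 lower in D2 over D0 (0.21). Psph, which completes serine synthesis, was at 139 CPM in D2 against 49.4 in D0 (log2 ratio 1.49), but at -0.0023 on mean log2(CPM + 1). Aldh1l1, a cytosolic folate enzyme, was lower in both, at 55.6 CPM in D0, 8.14 in D1 and 10.6 in D2. Its mitochondrial relative Aldh1l2 had a log2 ratio of -2.51 in D1 over D0. It met the limit on detection through D0 alone, so its place among the genes lower in D1 was in part fixed by that limit. Its log2 ratio of 3.40 in D2 over D0 rested on a highest cell of 2771 CPM against a mean of 31.6. Amt, of the glycine cleavage system, was at 237 CPM in D0 and 55.996 in D2. Sfxn1, a mitochondrial serine carrier, had the highest D1 over D0 ratio, 0.64.

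Among 14 other amino acid enzymes, 0 were higher and 8 lower in D1 over D0 (median -1.14), and 3 were higher and 4 lower in D2 over D0 (0.012). Gpt2 was at 109 CPM in D0 and 25.3 in D1, and Bcat1, a cytosolic branched-chain aminotransferase, at 1079 in D0 and 281 in D2. Bcat2 and Glul, its mitochondrial relative and glutamine synthetase, had D2 over D0 ratios of 1.09 and 1.04, which were -1.57 and -1.25 on mean log2(CPM + 1), and D1 over D0 ratios of 0.82 and 0.092.

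Of 12 amino acid transporters, 4 were higher and 2 lower in D1 over D0 (median 0.36), and 5 of 11 were higher and 2 lower in D2 over D0 (0.91). Slc43a1 was at 2.65 CPM in D0, 31.9 in D1 and 23.9 in D2, and Slc1a4, a carrier of alanine, serine and cysteine, at 4.22 in D0 and 26.01 in D1. Slc7a5 was lower on both later plates, with 62.7, 18.9 and 18.7 CPM, Slc7a1 was at 147 CPM in D0 and 31.4 in D1, and Slc1a5, a glutamine carrier, was at 43.2 in D0 and 17.7 in D2. Slc7a6 had a ratio of 2.80 in D2 over D0, with a highest cell of 9351 CPM against a mean of 394, and of -0.12 on mean log2(CPM + 1).

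Of 20 aminoacyl-tRNA synthetases, 0 were higher and 3 lower in D1 over D0 (median -0.47), and 3 were higher and 1 lower in D2 over D0 (0.32). Aars was at 392 CPM in D0 and 189 in D1, and Qars at 216, 97.0 and 82.8 in D0, D1 and D2. Hars (1.28) and Farsb (1.09) had the highest log2 ratios in D2 over D0 and Eprs, at -0.44, the second lowest, while Farsb (0.36) and Rars (0.22) led in D1 over D0.

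In the list of eIF2 and its kinases and phosphatases, 0 of 16 genes were higher and 4 lower in D1 over D0 (median -0.49), and 2 were higher and 4 lower in D2 over D0 (-0.27). Eif2ak4 encodes GCN2, the kinase that senses uncharged tRNA, and was at 18.02 CPM in D0 and 6.08 in D2. Eif2ak3, which encodes PERK, was at 10.9 in D0 and 1.15 in D2, with a read in 39 of 90 and 4 of 93 cells. In that comparison it met the limit on detection through D0 alone, so its place among the lower genes was in part fixed by that limit. Eif2ak1 was at 51.7 CPM in D0 and 148 in D2 (log2 ratio 1.52), but at -1.93 on mean log2(CPM + 1). Eif2b1, a subunit of the exchange factor of eIF2, had 0.73 for D1 over D0 and 1.19 for D2 over D0, the latter being -0.0045 on mean log2(CPM + 1), and Eif2s2, a subunit of eIF2, had 0.98 in D1 over D0. Gcn1l1 and Ppp1r15b had -1.96 and -1.89 in D1 over D0.

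Among 16 other partners and targets of ATF4, 13 met the limit on detection in D1 over D0, with 2 higher and 4 lower (median -0.41), and 12 in D2 over D0, with 5 higher and 3 lower (-0.15). Nupr1 was at 62.6 CPM in D0, 6.80 in D1 and 36.4 in D2, so that, like Asns, it was lowest in D1. Cebpg, a dimer partner of ATF4, was at 35.1 CPM in D0 and 4.58 in D2, and Xpot, which exports tRNA, at 163 in D0 and 50.4 in D1. Gdf15, a secreted stress factor, was at 5.19 CPM in D0 and 13.7 in D2. Stc2, Cebpd and Jdp2 stayed below 10 CPM in mean in all labels. Jdp2 met the limit on detection through D0 alone, where it was highest. Its place among the lower genes in both comparisons was therefore in part fixed by that limit. Jdp2 had a read in 24 of 90 D0 cells, in none of 50 D1 cells, which by the limit of 3 counts allows a share of up to 6% from counting error alone, and in 4 of 93 D2 cells.

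Of 16 genes of the unfolded protein response, 4 were higher and 2 lower in D1 over D0 (median 0.39), and 4 were higher and 2 lower in D2 over D0 (0.39). Xbp1, a transcription factor of that response, was at 87.7 CPM in D0 and 427 in D2, a log2 ratio of 2.28. Manf, a secreted protein of the endoplasmic reticulum, was at 38.9, 129 and 102 CPM, and Dnajc3 had 1.24 in D1 over D0. Canx, the chaperone calnexin, was at 1588 CPM in D0 and 311 in D2. Ern1, which encodes IRE1, was at 6.25 CPM in D0, 2.97 in D1 and 0.95 in D2, and Dnajb9 had -1.46 in D1 over D0.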

How the data were processed

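Single-cell RNA-seq of 96 wells each of D0, D1 and D2 was used. The authors aligned the reads with HISAT2 to GRCm38 and deposited a table of raw counts, reads per gene in each of 288 wells. The counting tool, annotation and strand setting are not given in the sources used here. Although the labels speak of normalized values, the numbers are whole and wells that fail the filter are included. Groups came from the sample titles.

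Cells were kept with over 200000 reads, over 2000 genes and a mitochondrial fraction under 0.15 (printed in the study's methods with a percent sign). With these limits 233 cells passed, more than the study reports. The study also describes a distinct group of 48 h cells whose marker genes it reads as potential cellular stress. The labels do not mark these cells, so all D2 cells were taken as 1 group. Reads were scaled to CPM with each cell's total, and means weigh cells equally. The members and lists were chosen with earlier results of these data known, and the limits of 2-fold and rho 0.3 with them. For each other list, the 2 highest and 2 lowest ratios of D1 over D0 and of D2 over D0 among tested genes are named, with the 5 nearest genes per label and Hprt. Of these, 2 genes are not reported here. Counts of list genes past rho 0.3, the further values given for list genes, the 4 motifs, the plot of Psat1 against Mthfd2, the longest transcript as length and the thinning to the gene number of D2 were chosen after values were seen. Thinning drew reads without replacement. Lengths and positions came from GENCODE M21 and promoters from RefSeq. Python 3.11.15, numpy 2.4.6, pandas 2.3.3, scipy 1.17.1, matplotlib 3.10.9, BLAST 2.17.0 (near copies of at least 90% identity) and, in R 4.3.3, edgeR 4.0.16 and DESeq2 1.42.0 (scaling factors only) were used. The ratio, rho and thinning steps were tested on simulated counts.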

Additional observations from a re-analysis of the deposited data

Results flagged for a closer look

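The 55 wells that failed the filter entered no comparison. They held 463 reads of the 10 genes, in 30 of the wells, which is above the limit that a count of 0 would allow. Asns had 189 of these reads, Psat1 84, Shmt2 68 and Atf4 52, and Ddit3 and Ddit4 had none.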

How the results depend on the processing

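No paired analysis was possible because the labels carry no replicate numbers and each time point is 1 culture. Of 480 values of the members' log2 ratios under alternatives, 459 kept the sign and 376 moved by more than counting error. The signs that turned for ratios past 2-fold were as follows. Trib3 in D1 over D0 was 0.18 with summed reads and TMM factors and 0.077 with summed reads and size factors. On mean log2(CPM + 1), Trib3 and Ddit3 in D2 over D1 were -0.092 and -0.064, the median of the stress genes in D2 over D1 was -0.078, and in D2 over D0 Aldh1l2 was -0.31, Psph -0.0023, Bcat2 -1.57, Glul -1.25, Slc7a6 -0.12, Eif2b1 -0.0045 and Eif2ak1 -1.93. In plate columns 1 to 6, Stc2 in D1 over D0 was -0.41 and Aldh1l2 in D2 over D0 -5.01, and in columns 7 to 12 Jdp2 in D2 over D0 was 0.46 and Ddit3 in D2 over D1 -0.48. TMM and size factors shift all ratios by 0.21 and 0.10 for D1 over D0, 0.28 and 0.23 for D2 over D0, and 0.068 and 0.12 in D2 over D1.

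Of the members, 1 was higher and 3 were lower in D1 over D0. The number higher was 0 with the looser and the stricter filter on cells, a pseudocount of 10 CPM, plate columns 1 to 6 and without cells that went against their label in Hprt, and 2 with summed reads, alone or with TMM or size factors. The number lower was 1 with summed reads, alone or with either factors, a pseudocount of 10 CPM and totals without abundant genes. Leaving out single cells gave 0 to 2 higher and 1 to 3 lower. In D2 over D0 mean log2(CPM + 1) gave 3 higher and 1 lower, and columns 7 to 12 gave 1 lower. The shares of all genes past 2-fold were not computed under these alternatives. The median of the synthesis genes was 0.86 with summed reads and TMM factors in D1 over D0. In D2 over D0 it was 1.94 with summed reads and TMM factors, 1.89 with summed reads and size factors and 0.51 on mean log2(CPM + 1). The median of the stress genes in D2 over D0 was -0.14 on mean log2(CPM + 1) and 1.71 in columns 1 to 6, and in D2 over D1 1.98 and 0.38 on the 2 sides.

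With Pearson's r the median within synthesis was 0.44 in D1 and 0.24 in D2, between synthesis and stress 0.13 in D1, and Atf4 with synthesis -0.044 in D1 and 0.20 in D2. Given reads, detected genes and mitochondrial share, D0 had 0.39 within synthesis, 0.068 between and 0.22 for Atf4. Within stress the sides gave 0.29 and -0.21 in D0 and 0.071 and 0.37 in D1. Thinned to the gene number of D2, within synthesis was 0.26 in D0 and 0.40 in D1. The other 84 of 98 medians of rho moved by at most 0.1. The causes were not tested. At 200000 reads per cell 1 read stands for 5 CPM, beside median levels of at most 22.8 CPM for Chac1, Ddit3, Ddit4 and Trib3, and each time point is 1 culture.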
